A study of Mus musculus with 12 samples.

Results

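Whole mouse embryos homozygous for the acd allele of Acd were compared with wild type embryos at E10.5, midgestation, and neither group is labelled as carrying a p53 mutation. The comparison used 6 of the 12 arrays of the series, chosen by sample title: 3 titled acd (genotype Acdacd/acd) and 3 titled wt. Of 45101 probe sets, the 34945 with 1 gene symbol were considered, and 13501 genes were tested. The other 6 arrays, 3 from p53-/- embryos and 3 from double mutants (Acdacd/acd, p53-/-), give reference levels below. Every array was made from 250 ng of total RNA of a whole embryo, and the labels call the 3 arrays of a genotype biological replicates. Neither mutant allele is described in the labels, and nothing there gives strain or litter. Values are RMA log2 expression values, so a difference of 1 is a doubling, and the differences below are acd minus wt with their SE from limma.

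Acd encodes TPP1, a member of shelterin, the protein complex that caps telomeres and brings telomerase to them. A telomere without its cap is read by the cell as broken DNA, and the damage kinases then stabilise p53, which turns on genes that stop the cell cycle or kill the cell. The acd mutation arose spontaneously and is known for adrenocortical dysplasia, with defects of the caudal skeleton, the limbs, the skin and the urogenital tract. RNA of a whole embryo mixes all tissues, so fewer cells of a type and less RNA per cell cannot be told apart.

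The 6 arrays were alike in overall distribution, with medians of 5.33 to 5.38 and pairwise correlations of 0.995 to 0.998 over the tested genes, and their number limits the precision. Markers of several tissues were measured, as a whole embryo should give, with the neuronal tubulin Tubb3 at 9.91 to 10.49, the atrial myosin Myl4 at 10.30 to 10.62 and the somite factor Tcf15 at 8.44 to 8.67. Acd replicate 1 stood apart in p53 target transcripts, as described below. Sex also differed: the Y-linked transcript Kdm5d measured 8.72 in wt replicate 1 and 8.70 to 8.72 in the 3 acd arrays, but 3.98 and 3.37 in wt replicates 2 and 3. The acd arrays were therefore also set against wt replicate 1 alone, as values with no test.

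Acd itself was lower in every acd embryo. It measured 8.999, 8.995 and 8.988 in the wt arrays and 8.27, 8.31 and 8.22 in the acd arrays. The groups did not overlap, and the Acd level of acd embryos was 0.603 times that of wt, a log2 difference of -0.73 ± 0.04 (n = 3 against 3, limma adjusted p = 0.00322). It measured 8.84 to 9.05 in the p53 arrays and 8.24 to 8.44 in the double mutants. A single probe set reads Acd, and its place relative to the altered part of the gene is not stated in the labels. Leaving out wt replicate 2 gave -0.73 with an adjusted p of 0.0501, and a term for the Y-linked transcripts gave -0.73 with an adjusted p of 0.185.

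Elmo3, a protein of the engulfment and cell motility family, was the other gene that passed. It measured 5.53, 5.24 and 5.12 in the wt arrays and 7.57, 7.65 and 7.85 in the acd arrays (limma adjusted p = 0.0019). All acd arrays lay above all wt arrays, and the double mutants lay at 7.35 to 7.96 against 4.66 to 5.16 in the p53 arrays. Its wt values lay around the array medians and no measure of background was at hand for them, so no size is given. Acd and Elmo3 were the 2 genes called among 13501 (0.0148%), with 1 higher (0.00741%) and 1 lower (0.00741%), and the next smallest adjusted p was 0.425. Without a correction for multiple testing, 1360 genes had a p under 0.05 (10.1%), where chance alone would give 675.

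Elmo3 lies on chromosome 8, 16 protein-coding genes from Acd in the RefSeq table. Of the 40 protein-coding genes nearest to Acd, 31 besides Elmo3 were tested, and their differences ran from -0.13 to 0.25 with a median of 0.01, against -0.01 over all genes. The acd arrays lay wholly above the wt arrays for 3 of these 31 and wholly below for 2, against 7.24% and 9.86% of all genes. The highest of the 31 was Tmem208, a protein of the endoplasmic reticulum, 2 genes from Elmo3. Tmem208 measured 9.86, 9.79 and 9.92 in wt and 10.12, 10.12 and 10.09 in acd (0.25 ± 0.05, adjusted p = 0.425). Fhod1, a formin that shapes actin filaments, lies 3 genes from Elmo3 and measured 7.96, 8.02 and 7.97 in wt and 8.19, 8.14 and 8.19 in acd (0.19 ± 0.04, adjusted p = 0.425). Neither passed the test, although neither overlapped between genotypes.

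**Figure D1:**
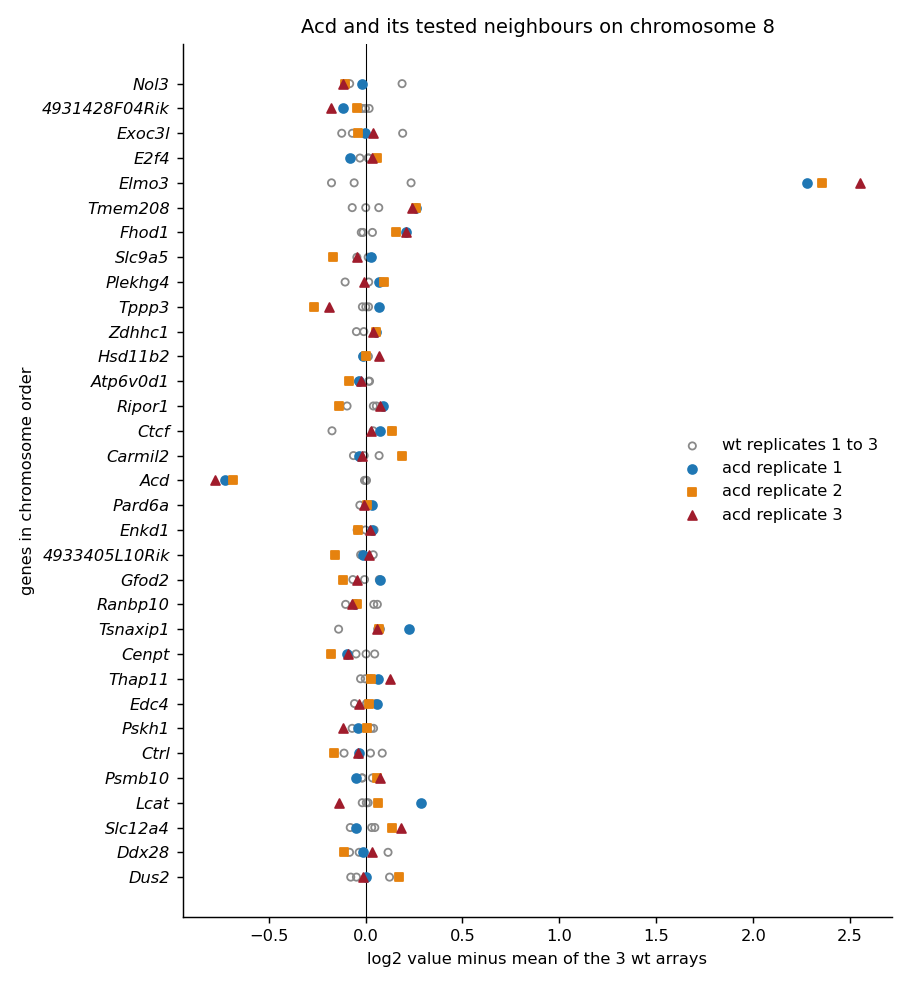
Log2 value minus the mean of the 3 wt arrays (horizontal axis) in each wt array (open circles) and each acd array (filled symbols) for Acd and its tested neighbours, in their order along chromosome 8 (vertical axis). Acd lies to the left and Elmo3 to the right in every acd array, and the mean differences of the other genes run from -0.13 to 0.25.

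The genes that came next did not pass the test (adjusted p = 0.425 each). Tmem223, a mitochondrial membrane protein, measured 10.21, 10.11 and 10.06 in wt and 9.58, 9.76 and 9.65 in acd (-0.46 ± 0.06), and it passed when the variance was fitted with an intensity trend (adjusted p = 0.0473). Casq1, the calcium-binding calsequestrin of skeletal muscle, measured 6.79, 6.66 and 6.78 in wt and 7.07, 7.12 and 7.06 in acd (0.34 ± 0.05). The acd and wt arrays did not overlap for either gene. Of the remaining genes of smallest p, Plac8 measured 0.40 ± 0.06, Enho, the secreted peptide adropin, -0.29 ± 0.04, Sbsn -0.36 ± 0.05 and Hoxa9 -0.30 ± 0.05. Rufy2 and Gad1 were also among them, with wt and acd means at or below the array medians.

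No other shelterin gene passed the test. Terf1, which binds the double-stranded telomere repeat, measured 8.51, 8.86 and 8.69 in wt and 8.89, 8.91 and 8.86 in acd (0.20 ± 0.09, adjusted p = 0.495). The groups overlapped, and the other probe sets of Terf1 measured 0.27 and -0.23. The remaining 5 members ran from -0.07 for Terf2 to 0.04 for Terf2ip, the Terf2-binding protein RAP1. Of 11 telomerase and CST genes, which extend and fill in telomere ends, 4 were higher and 7 lower with a median of -0.03, and none had a p under 0.05. Of 28 genes of the damage checkpoint and repair, 13 were higher and 15 lower, with a median of -0.01. Bard1, the partner of Brca1, was the checkpoint gene of smallest p, with acd above wt in every array, but its values lay around the array medians, at 5.34, 5.27 and 5.11 in wt and 5.61, 5.45 and 5.55 in acd.

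p53 target genes did not pass as single genes, and the acd embryos differed among themselves. Of 47 listed targets, 39 were tested, of which 22 were higher (47.2% of all genes) and 17 lower (52.8%) in acd, with a median of 0.03 and 0 called. Unadjusted, 2 had a p under 0.05 in the higher direction (3.85% of all genes) and 1 in the lower (6.22%). Bax, Gls2, Fdxr and Gdf15 had no probe set with 1 symbol, and Fas, Tnfrsf10b, Dram1 and Eda2r did not pass the filter on low values. By role, 9 of 14 targets that arrest the cell cycle, 7 of 10 that promote apoptosis and 6 of 15 in repair and metabolism were higher, with medians of 0.04, 0.07 and -0.01. Relative to the wt mean, their mean lay at -0.07 in acd replicate 1, 0.12 in replicate 2 and 0.17 in replicate 3. Replicate 1 lay below every wt array for 22 of the 39 targets (25.7% of all genes) and above for 5 (28.7%). Replicate 2 lay above every wt array for 20 (22.2%) and below for 10 (36.9%), and replicate 3 above for 22 (30.9%) and below for 5 (33.7%). For 17 targets replicates 2 and 3 lay above every wt array while replicate 1 did not, a pattern that 648 of all genes showed (4.8%). The pattern was chosen with p53 target values known, so this count is a description. In the Acd transcript the same 3 arrays lay close together, from 8.22 to 8.31. Without acd replicate 1 the median over the 39 targets was 0.05.

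Promoter windows from RefSeq (assembly GRCm38.p6, 250 bases before to 50 after an annotated start) were searched for the p53 consensus. The consensus is a palindrome of 20 bases made of abutting decamers, and up to 1 mismatch was allowed. The 27025 genes had 32851 windows, and the best-matching window of each gene was kept. A match was found for 29 of 27025 genes (0.107%) and for 3 of the 38 listed targets with a window. The stretches printed below, Ccng1 at chr11:40755442-40755501 on the minus strand and Cdkn1a at chr17:29090908-29090967 on the plus strand, hold the match with 20 bases on each side, and Gtse1 at chr15:85859945-85859964 on the plus strand holds the match alone. They are given 5′ to 3′ because Ccng1 and Cdkn1a led the difference among the acd embryos. Capitals mark the matched bases, which begin 195, 51 and 1 bases before the annotated start of the window that was kept, each with 1 mismatch. A match describes the letters and shows no binding.
Ccng1: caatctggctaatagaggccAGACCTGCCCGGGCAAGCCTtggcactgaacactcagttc
Cdkn1a: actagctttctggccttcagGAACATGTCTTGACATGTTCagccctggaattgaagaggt
Gtse1: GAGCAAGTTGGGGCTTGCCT

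Among targets that arrest the cell cycle, Ccng1, cyclin G1, differed most between acd embryos. Ccng1 measured 9.22, 9.26 and 8.75 in wt and 8.34, 10.16 and 10.34 in acd (0.54 ± 0.50, adjusted p = 0.721). Acd replicate 1 lay below all wt arrays and within the p53 arrays (8.32 to 8.54), while replicates 2 and 3 lay above all wt arrays. The other probe sets of Ccng1 measured 0.74 and 0.77 and showed the same split. The Ccng1 difference was 1.17 without acd replicate 1 and 0.17 without acd replicate 3. Cdkn1a, the cyclin-dependent kinase inhibitor p21, measured 8.09, 8.09 and 8.04 in wt and 8.02, 8.83 and 8.99 in acd (0.54 ± 0.23, adjusted p = 0.494). Replicate 1 again lay below all wt arrays, and without it Cdkn1a measured 0.84 and passed (adjusted p = 0.043), which made 3 genes called. Without acd replicate 3 Cdkn1a measured 0.36. Gtse1, a microtubule protein of the G2 phase, measured 7.82, 7.85 and 7.80 in wt and 7.82, 7.94 and 7.97 in acd. Ppm1d, the phosphatase WIP1 that dampens the damage response, went the other way, at 9.17, 9.20 and 9.23 in wt and 9.07, 9.05 and 9.06 in acd (-0.14 ± 0.04), and did not pass. Mdm2, the ubiquitin ligase that degrades p53, measured -0.02 ± 0.06, but its other probe sets measured 0.098 and 0.091. In the probe set at 0.098, acd replicates 2 and 3 (7.73 and 7.78) lay above the highest wt array (7.68), and replicate 1 (7.63) did not. The probe set at 0.091 lay below the array medians and did not show this split.

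Among targets that promote cell death, Pmaip1, the BH3-only protein Noxa, measured 6.65, 6.58 and 6.47 in wt and 6.59, 7.18 and 7.26 in acd (0.44 ± 0.17, adjusted p = 0.48). Phlda3, an inhibitor of Akt signalling, measured 7.59, 7.71 and 7.35 in wt and 7.21, 8.06 and 8.16 in acd (0.26 ± 0.24, adjusted p = 0.722). In both genes replicates 2 and 3 exceeded all wt arrays. Trp53inp1, a p53-induced nuclear protein, measured 9.73, 9.66 and 9.54 in wt and 9.48, 10.06 and 9.89 in acd. Bbc3, the BH3-only protein Puma, showed no such split, at 7.16, 7.12 and 7.09 in wt and 7.14, 7.18 and 7.15 in acd. Among targets of metabolism and growth, Ddit4l, an inhibitor of mTOR signalling, measured 6.79, 6.99 and 6.74 in wt and 6.65, 7.36 and 7.42 in acd (0.31 ± 0.20). Sesn2, a leucine sensor upstream of mTOR, measured 6.58, 6.77 and 6.49 in wt and 6.47, 7.01 and 7.23 in acd (0.29 ± 0.19), and Dcxr, a sugar reductase, 0.23 ± 0.11. Replicates 2 and 3 were the high arrays for these genes as well.

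All 13501 genes were also ordered by how far acd replicates 2 and 3 lay above the highest wt array while replicate 1 did not. The first 5 were listed p53 targets. This pattern was chosen because p53 target levels were known to differ this way, so the order is a description and no test. The gaps were 0.89 for Ccng1, 0.74 for Cdkn1a, 0.53 for Pmaip1, 0.38 for Ddit4l and 0.35 for Phlda3, followed by Pvt1 at 0.33. For Ccng1, Ppm1d, Pidd1, Trp53inp1 and Phlda3 the p53 arrays all lay below the wt arrays. The share of all genes with this pattern was not counted, so these 5 targets serve only as reference levels. Acd replicates 1, 2 and 3 lay at or below the highest p53 array for 3, 1 and 1 of these 5. Between double mutants and p53 embryos, which share no array with acd and wt, Ccng1 differed by 0.01 ± 0.11, Cdkn1a by 0.07 ± 0.10, Phlda3 by 0.07 ± 0.11 and Pmaip1 by 0.57 ± 0.48, and none of these passed. Pmaip1 spread widely among the double mutants, from 5.75 to 7.90.

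**Figure D2:**
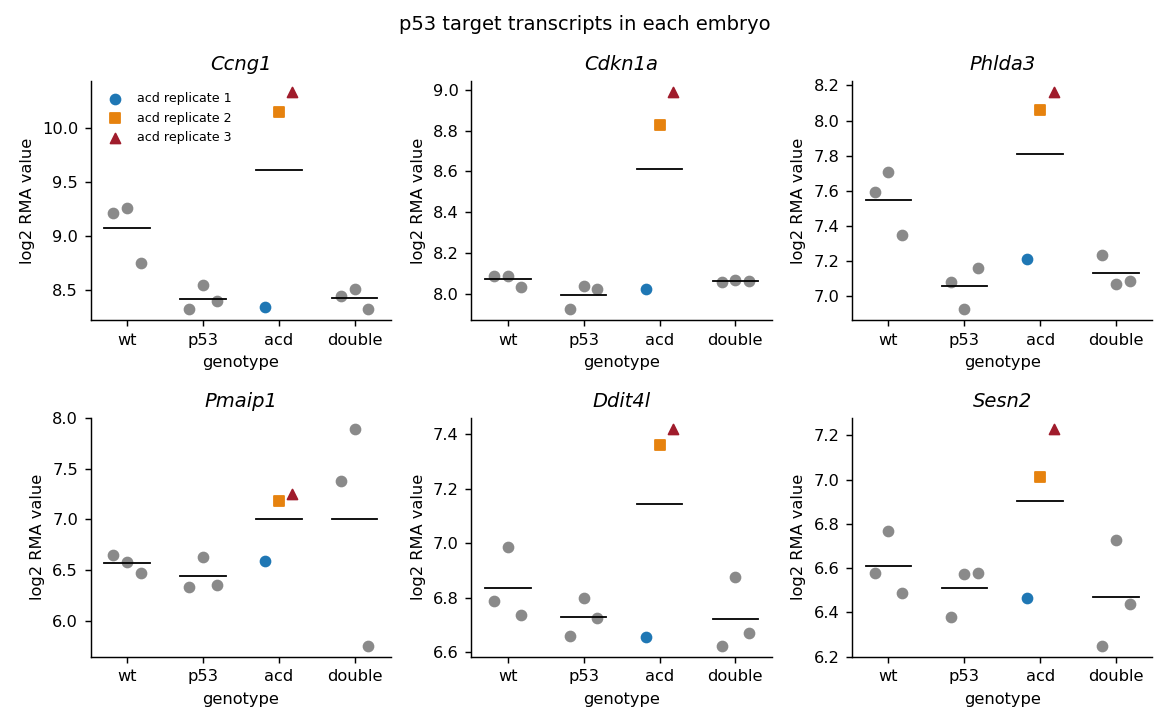
Log2 RMA value (vertical axis, a separate scale for each gene) of 6 p53 targets in the 12 embryos, a point per embryo and a line at each genotype's mean. Acd replicate 1 sits below every wt array for Ccng1 (8.34), Cdkn1a (8.02), Phlda3 (7.21), Ddit4l (6.65) and Sesn2 (6.47), and among the wt arrays for Pmaip1 (6.59). Acd replicates 2 and 3 sit above every wt array for each of the 6 genes.

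**Figure D3:**
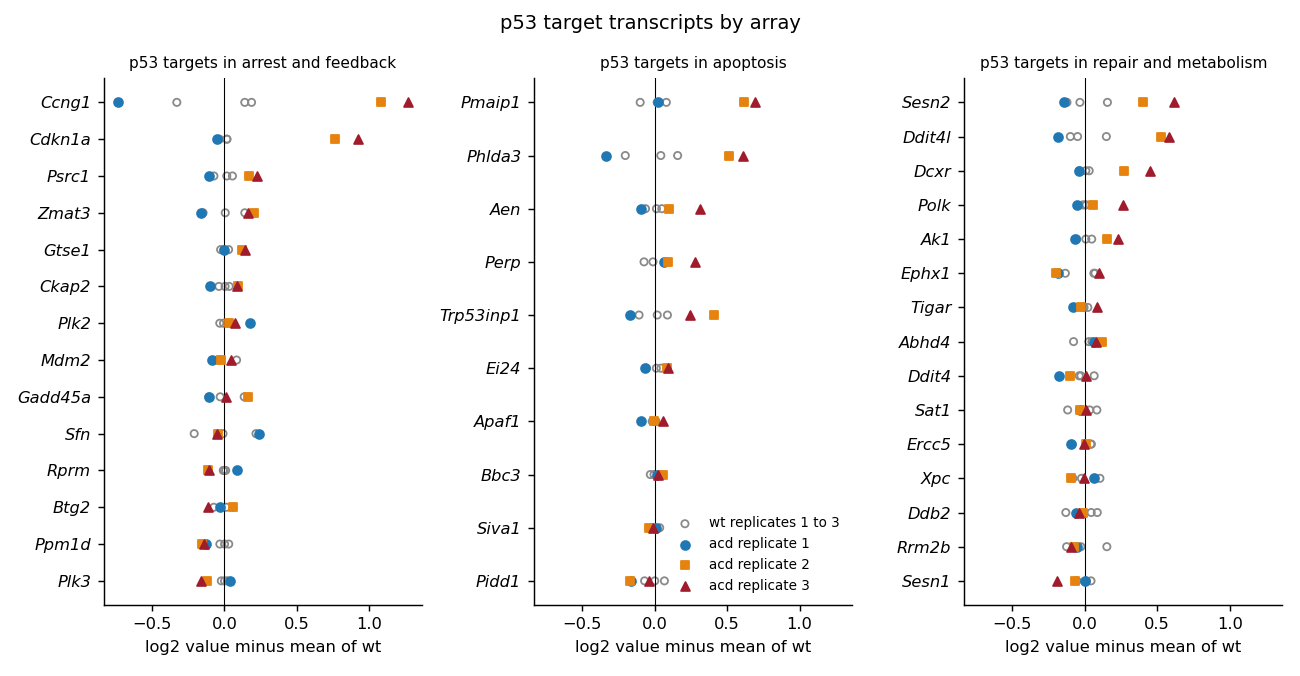
Log2 value minus the wt mean (horizontal axis) of the 39 tested p53 targets, grouped by role, with open circles for wt arrays and a filled symbol for each acd replicate. The list means are -0.07, 0.12 and 0.17 for acd replicates 1, 2 and 3, and for Ccng1 replicate 1 lies at 8.34 against 10.16 and 10.34 in the others.

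Transcripts of visceral endoderm and liver were higher in acd embryos without any gene passing. Of 17 listed genes 16 were on the array and 12 passed the filter on low values; each of these 12 lay above 0, with a median of 0.32, and 8 had an unadjusted p under 0.05 (3.85% of all genes in this direction). The filter counted all 12 arrays, so a gene could pass through the other genotypes; without it, 15 of the 16 were higher, with a median of 0.25, against 49.0% of all genes on the array. Afp, the fetal serum protein alpha-fetoprotein, measured 11.44, 11.23 and 11.28 in wt and 11.79, 11.66 and 11.60 in acd (0.36 ± 0.07). Ttr, the thyroid hormone carrier transthyretin, measured 9.22, 8.85 and 9.01 in wt and 9.63, 9.43 and 9.56 in acd (0.51 ± 0.10). Neither gene overlapped between genotypes. Rbp4, the plasma carrier of retinol, measured 0.36 ± 0.07 and Apom, an apolipoprotein, 0.30 ± 0.05. The list means of the acd arrays were 0.36, 0.25 and 0.35, and replicates 1, 2 and 3 lay above every wt array for 12, 8 and 8 of the 12 genes, against 28.7%, 22.2% and 30.9% of all genes. In the other embryos the list mean varied widely: it was -0.05, 1.08 and -0.17 in the p53 arrays, so p53 replicate 2, which does not carry the acd label, exceeded every acd array. Apoa1, the main protein of high-density lipoprotein, measured 6.43, 6.11 and 6.07 in wt and 6.67, 6.38 and 7.38 in acd, with replicate 3 the highest. Against wt replicate 1 alone, 12 of 12 members remained higher with a median of 0.27. Of the placenta and decidua markers, 5 of 12 on the array passed the filter on low values, while 7 others, among them Tpbpa, Prl8a2 and Ascl2, did not. Rhox5 measured 0.51 ± 0.13, Plac1 0.25 ± 0.09 and Igfbp1 0.14 ± 0.05, but Hand1 -0.09 ± 0.09 and Dcn -0.05 ± 0.09. The means of Igfbp1, 4.55 in wt and 4.69 in acd, lay below the array medians. Without the filter 4 of these 12 markers were higher and 8 lower, with a median of -0.02. The part of extraembryonic tissue in the endoderm values was not tested.

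Transcripts of differentiating neurons were lower in acd embryos, again without any gene passing. All 23 members were below 0, with a median of -0.21, and 7 did not overlap between genotypes (9.86% of all genes in this direction). Lhx1, a LIM homeobox factor of interneurons that is also expressed in the kidney precursor, measured 8.09, 7.84 and 7.57 in wt and 7.44, 7.06 and 6.92 in acd (-0.69 ± 0.17). Mapt, the microtubule protein tau, measured 7.27, 7.08 and 6.98 in wt and 6.94, 6.69 and 6.47 in acd (-0.41 ± 0.13). Both sets of arrays were separate. Pou4f1, a transcription factor of sensory neurons, measured -0.34 ± 0.12 and Stmn3, a regulator of microtubules, -0.37 ± 0.16. The list means relative to wt were -0.02 in acd replicate 1, -0.24 in replicate 2 and -0.49 in replicate 3, and replicates 1, 2 and 3 lay below every wt array for 7, 21 and 23 of the 23 genes, against 25.7%, 36.9% and 33.7% of all genes. The count of replicate 1 was thus near that background. In p53 replicates 1 to 3, which do not carry the acd label, the list means were 0.04, 0.09 and -0.24. A p53 embryo thus lay as low as acd replicate 2. The median was -0.33 without acd replicate 1 and -0.11 without acd replicate 3, and against wt replicate 1 alone it was -0.34, with 23 of 23 lower. The wt list means were 0.11, -0.05 and -0.06 in replicates 1 to 3. As wt replicate 1 was the highest wt array for this list, the larger size against it is no stronger result. Of 15 genes of neural progenitors, 10 were lower and 5 higher, with Neurog1 at -0.23 ± 0.08 and Olig2, a factor of motor neuron precursors, at 0.20 ± 0.04.

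**Figure D4:**
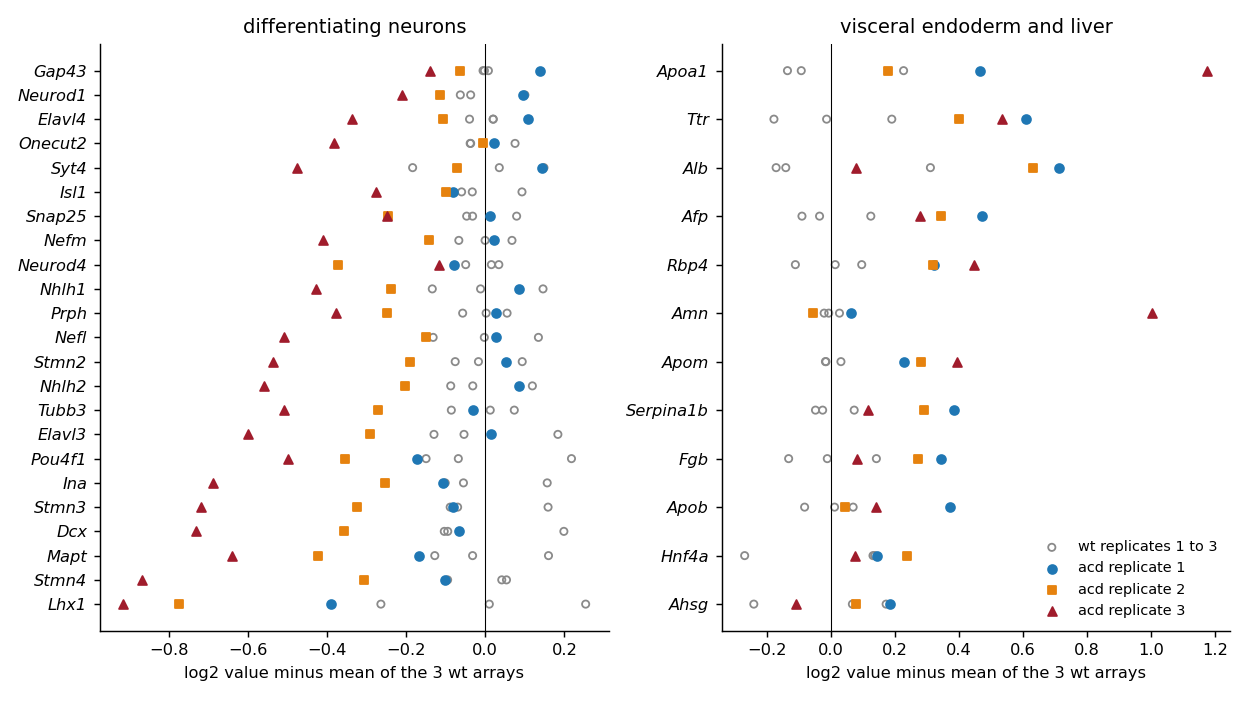
Log2 value minus the mean of the 3 wt arrays (horizontal axis) for the 23 neuron genes and the 12 tested genes of visceral endoderm and liver, with open circles for wt arrays and a filled symbol for each acd replicate. In the neuron panel acd replicate 3 lies below every wt array for 23 of 23 genes and replicate 1 for 7, while in the endoderm panel replicate 1 lies above every wt array for 12 of 12.

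Hox genes, which set position along the body axis, leaned low in acd embryos. This family was chosen after its values were seen and is given as a description. Of 30 tested Hox genes 28 were lower, with a median of -0.18, and 18 lay wholly below wt (9.86% of all genes). Without the filter on low values 31 of 33 were lower, with a median of -0.16. The lean was seen in each cluster: 8 of 8 Hoxa genes (median -0.25), 6 of 8 Hoxb (-0.14), 7 of 7 Hoxc (-0.16) and 7 of 7 Hoxd (-0.16) were lower. Hoxa9 measured 10.21, 10.20 and 10.13 in wt and 9.94, 9.87 and 9.82 in acd, and Hoxa5 9.32, 9.26 and 9.18 against 9.05, 9.02 and 8.96. Every acd array was below every wt array for both, and Hoxd3 measured -0.44 ± 0.09 and Hoxb9 -0.39 ± 0.09. The list means were -0.13, -0.26 and -0.20 in acd replicates 1 to 3 and 0.02, 0.02 and -0.04 in wt replicates 1 to 3. Against wt replicate 1 alone, the highest wt array for this list, the median was -0.23.

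Other tissue lists gave smaller values, and 0 of their genes passed. In the somite and muscle precursor list 13 of 18 were lower (median -0.08), with Pax7, a factor of muscle precursors, at -0.25 ± 0.06 and Tcf15 at -0.15 ± 0.04. In the tail bud and posterior axis list 8 of 15 were lower (median -0.08), with Hoxd13 at -0.16 ± 0.05 and Hoxa11 at -0.25 ± 0.08. These and the other tested Hox members of this list (Hoxb13, Hoxc13, Hoxd11 and Hoxc10) are also counted among the Hox genes above. All of them were lower, from -0.30 to -0.12, and most of the remaining members were higher, so this list is no separate fall. Msgn1, a factor of the presomitic mesoderm, measured 0.12 ± 0.04, with means below the array medians (5.10 in wt and 5.22 in acd). The median of this list was 0.05 without acd replicate 2 and -0.01 against wt replicate 1 alone, so its direction rests on single arrays. Limb bud genes had a median of -0.07, with 10 lower and 5 higher. Their list means were 0.05, -0.04 and -0.15 in acd replicates 1 to 3, so the direction differed between embryos. Fgf10, the growth factor that starts limb outgrowth, measured 5.95, 5.81 and 6.18 in wt and 6.25, 6.50 and 6.28 in acd. Urogenital ridge and adrenal precursor genes had a median of -0.03, with 5 of 15 higher, the intermediate mesoderm factor Osr1 at -0.25 ± 0.07 and Gata4 at 0.31 ± 0.11. Heart muscle genes leaned higher, 15 of 20 with a median of 0.10, and 11 did not overlap (7.24% of all genes in this direction). Myl4 measured 0.19 ± 0.05 and Tnni3, cardiac troponin I, 0.22 ± 0.07. The heart list means were 0.05, 0.06 and 0.15 in acd replicates 1 to 3 and 0.002, 0.15 and 0.08 in p53 replicates 1 to 3. Primitive erythroid genes followed 1 embryo, with list means of -0.25, 0.55 and -0.04 in acd replicates 1 to 3. Replicate 2 lay above every wt array for 15 of 15 members, against 22.2% of all genes. The other embryos also spread, with erythroid list means of -0.03, -0.20 and 0.22 in wt and -0.18, 0.07 and -0.47 in p53 replicates 1 to 3. The erythroid median of 0.09 became -0.14 without acd replicate 2 and -0.02 without wt replicate 2. Macrophage genes also differed between embryos, with list means of 0.15, 0.02 and -0.22 around a median of 0.01, which became -0.09 without acd replicate 1 and 0.11 without acd replicate 3. Endothelial genes had a median of 0.06 and neural crest genes of -0.03.

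Among cell cycle and stress lists, DNA replication genes leaned higher, 21 of 25 with a median of 0.05, with Ccne1, cyclin E1, at 0.18 ± 0.06 and the origin-binding protein Orc1 at 0.17 ± 0.05. Of 21 genes of G2 and mitosis 13 were higher with a median of 0.01, and Mki67 measured -0.19 ± 0.08. Of 15 interferon response genes on the array 13 were higher and 2 lower without the filter on low values, with a median of 0.09. The filter kept 10, of which 4 had both means below the array median, where background compresses differences. Usp18 passed the filter only through double mutant replicates 1 and 2 (10.68 and 10.01) and acd replicate 2 (4.97). Its values in wt were 3.72 to 3.91, so its place among the 10 rests in part on an acd array. Bst2, an antiviral membrane tether, measured 6.21, 6.23 and 6.18 in wt and 6.54, 6.35 and 6.44 in acd (0.24 ± 0.06), and Oas1a 0.19 ± 0.05. The integrated stress and unfolded protein list was higher in 14 of 18, with a median of 0.05 and the chaperone Hsp90b1 at 0.16 ± 0.05. Hypoxia and glycolysis genes had a median of 0.07, senescence genes of -0.02 and immediate early genes of -0.02, and Bcl-2 family genes split into 6 higher and 6 lower. Ribosomal protein genes, 7 higher and 7 lower, had differences of -0.03 to 0.04.

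**Figure D5:**
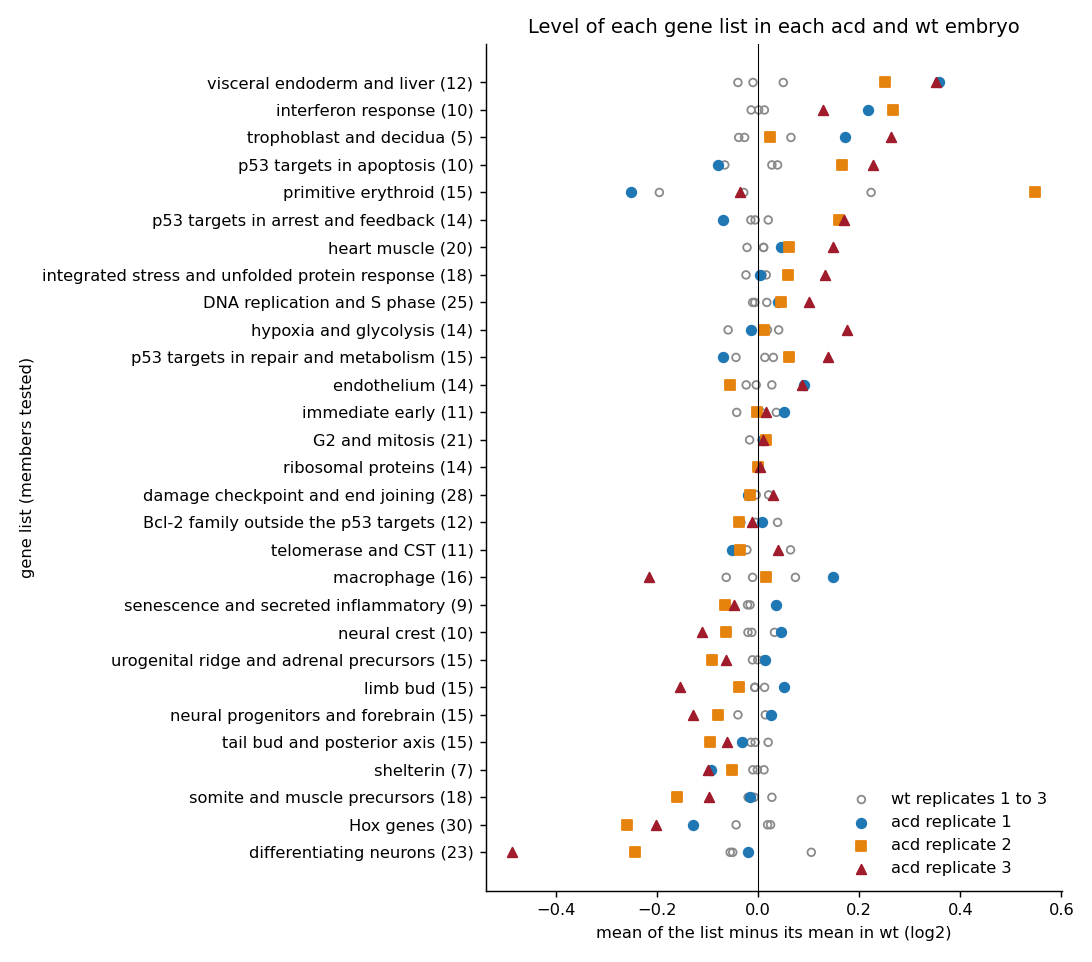
Mean of each gene list minus its wt mean (log2, horizontal axis) in each wt array (open circles) and each acd array (filled symbols), with the number of tested members in brackets. The 3 acd arrays lie together above wt for visceral endoderm and liver (0.36, 0.25 and 0.35) and apart from each other for differentiating neurons (-0.02, -0.24 and -0.49).

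The genes that varied most among the acd embryos were ranked by their SD, with no test. Btbd1, a ubiquitin ligase adaptor, measured 10.28, 11.05 and 11.05 in wt and 11.05, 10.19 and 7.59 in acd, with replicate 3 far below the rest (SD 1.80), and its other probe set measured -0.14. Gm6958 was low in acd replicate 1 alone (5.66, with the other acd arrays at 8.20 and 8.44), and the p53 arrays were low as well, at 5.49 to 6.65. Mid1 measured 6.06, 7.86 and 7.43, and Hemgn, a nuclear protein of erythroid cells, 9.01, 10.26 and 9.21. Slc15a2, Ctss, Asb17, 5430401H09Rik and Bcl11a complete the 10 genes of largest SD. Of 40 genes that differed by over 0.5 (0.296%), 12 lie on chromosome 11, which holds 8.29% of the tested genes, a share chosen after the values were seen. Slfn9 measured 7.53, 7.42 and 7.17 in wt and 6.63, 6.22 and 7.09 in acd, and the p53 arrays lay at 6.32 to 6.37. Rsad1 measured 7.38, 7.39 and 6.64 in wt and 5.41, 5.50 and 6.59 in acd, against 5.61 to 5.90 in the p53 arrays. In both genes acd replicates 1 and 2 lay near the p53 arrays, and acd replicate 3 near wt replicate 3.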

How the data were processed

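The deposited values are log2 expression values that the authors normalized from the scanner files with justRMA, per the series' design text; RMA gives all arrays near-equal distributions, which hides any difference in RNA content between embryos. The authors selected genes with BRB-ArrayTools, and those lists were not used here. The table holds 45101 probe sets, of which 64 are controls, 34945 have 1 gene symbol, 932 several and 9160 others none. RefSeq (GRCm38.p6) matched 34741 of the 34945. The brightest probe set by the mean of all 12 arrays stood for its gene, and genes exceeding the 40th percentile of the array on 3 or more arrays were kept (13501 of 18193).

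The test was limma's (version 3.58.1, R 4.3.3), with a mean per genotype fitted to the 6 acd and wt arrays (4 residual degrees of freedom), with two-sided moderated tests and Benjamini-Hochberg adjustment at 0.05. Only these arrays entered because the median SD between embryos was 0.0588 in wt and 0.0725 in acd but 0.209 in double mutants. For a single value, 3 against 3 cannot go below an exact permutation p of 0.1. The step was tested on simulated data. Members and lists were chosen with earlier results of these data known. Named genes are Acd, Elmo3, the 5 smallest p per direction, up to 4 members of each list by p, p53 targets, neighbours of Acd and the 10 genes of largest SD among acd arrays; other names were chosen after values were seen. Alternatives covered a replicate block, filters, probe set rules, normalization, variance models and each array left out. The p53 transcript was not analysed here.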

Additional observations from a re-analysis of the deposited data

How the results depend on the processing

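The Acd difference kept its direction over 22 settings (adjusted p 0.000233 to 0.185). With a replicate block, although same-numbered arrays did not deviate together (correlations of 0.15, -0.23 and -0.04), 0 genes were called in place of 2, with Acd at -0.73 (adjusted p = 0.107) and Elmo3 at an adjusted p of 0.0831. With a term for Y-linked transcripts 1 gene was called and Acd measured -0.73 (adjusted p = 0.185). Leaving out each array in turn called 1 to 6 genes, with Acd at -0.75 to -0.71. Without wt replicate 1, the only wt array with Y-linked transcripts, 6 genes were called, 4 of them sex-linked, and without wt replicate 2 only Elmo3. The number of genes with an unadjusted p under 0.05 was 1360 and became 239 with all 12 arrays, 2792 with every probe set, 784 without wt replicate 1. Terf1 reversed to -0.23 (adjusted p = 0.661) with its probe set of largest SD. The endoderm and liver median was 0.25 without the filter on low values, in place of 0.32, as more genes entered. The other causes were not tested. Few arrays limit these values: a p that misses the threshold does not show that a gene did not differ.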
